A study of Mus musculus with 48 samples.

Results

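Vwce and Scin were followed across the 6 groups of a mouse study of aortic dissection. Both genes were chosen by their measured values, being among the largest falls in counts from FeCon to FeNonAD and from FeCon to FeAAD, so their female values are given here as a description with no test, and the male libraries, which the choice did not use, carry the tests. They are 2 of the 18782 genes in the deposited table and 2 of the 14431 genes that passed the filter on low counts. Both were high in FeCon and low in MaCon, and some FeCon libraries overlapped MaCon. Only FeCon replicate 2 reached the NonAD and AAD groups in Vwce, and no FeCon library did in Scin. The fold difference between Con and AAD was 4.01 for Vwce in males and 22.9 in females, a difference between the sexes that was not tested.

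RNA came from the saline-perfused, snap-frozen thoracic aorta of 48 C57BL/6J mice, 1 library per mouse. Control mice were given normal drinking water (10 MaCon males and 10 FeCon females). The other mice drank 0.4% BAPN for 28 days from 3 weeks of age. BAPN (β-aminopropionitrile) inhibits lysyl oxidase, which joins collagen and elastin fibres to one another, and it was the only agent that differed between the groups. BAPN-treated survivors were sorted at the endpoint by what was found in the aorta, into mice without a lesion (4 MaNonAD and 8 FeNonAD) and mice with dissection or aneurysm (7 MaAAD and 9 FeAAD). NonAD and AAD were thus outcomes of 1 treatment and not assigned groups, NonAD mice need not have been on the way to a lesion, and mice that died of rupture are not among these libraries. The table gives expected counts, which are read counts estimated per gene, and library totals ranged from 13548000 to 17281273. Values are given below as CPM, counts scaled to a common library size, after TMM scaling, a correction for libraries of different composition. Summed CPM of 8 smooth muscle markers lay between 11833 and 60211 in the 48 libraries, and this list was the highest of the 21 marker lists by median. FeCon replicate 10 held the most heart and skeletal muscle marker RNA, MaCon replicate 2 the most T cell, thymocyte and airway marker RNA, and Foxn1, Pax8, Matn1, Dbh and Phox2a never exceeded 3 counts.

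Vwce encodes a secreted protein with von Willebrand factor C and EGF-like domains. Von Willebrand C repeats also occur in chordin-type antagonists of bone morphogenetic proteins, in the CCN matrix proteins and in thrombospondins, where they bind growth factors or matrix. Scin encodes scinderin, also called adseverin, a calcium-dependent protein of the gelsolin family that severs actin filaments, caps their growing ends and is best known from secretory cells, where it loosens the actin beneath the membrane. Actin turnover of this kind runs alongside the stable contractile filaments of arterial smooth muscle.

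The promoters are printed because both genes were high in the same group, so that the sequences before their starts can be compared. The 250 bases before each annotated start are from RefSeq on GRCm38.p6, in which Vwce lies on the plus strand of chromosome 19 (chr19:10633983-10634232) and Scin on the minus strand of chromosome 12 (chr12:40134229-40134478). The submitters' processing notes name GRCm39, whose coordinates differ. Capitals mark every match to the motifs searched, on either strand.
Vwce: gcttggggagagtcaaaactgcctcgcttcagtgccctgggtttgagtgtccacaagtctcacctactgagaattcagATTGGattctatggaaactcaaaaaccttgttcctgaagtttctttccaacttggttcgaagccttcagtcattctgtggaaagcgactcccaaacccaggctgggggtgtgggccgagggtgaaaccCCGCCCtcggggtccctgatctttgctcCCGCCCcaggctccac
Scin: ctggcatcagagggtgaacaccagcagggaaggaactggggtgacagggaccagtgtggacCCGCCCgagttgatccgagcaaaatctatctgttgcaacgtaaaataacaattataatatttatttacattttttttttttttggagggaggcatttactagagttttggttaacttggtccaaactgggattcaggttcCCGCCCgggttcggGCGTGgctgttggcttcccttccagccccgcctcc

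The motifs searched were the TATA box (TATAAA), the CCAAT box (CCAAT), the GC box (GGGCGG), the E-box (CACGTG), the AP-1 site (TGANTCA), the core of the dioxin response element (GCGTG), the glucocorticoid receptor half-site (AGAACA, added after values were seen), and the CArG box and MEF2 site that smooth muscle genes often carry. No match overlapped another. Each promoter held 2 GC boxes on the minus strand, which a share of 48.7% of 18296 promoters of the same length also held at least once. In Vwce they began 44 and 16 bases before the start, and in Scin 189 and 49 bases before it. The Vwce promoter also held a CCAAT box 172 bases before the start (35% of promoters), and the Scin promoter a GCGTG core 35 bases before it (38.1% of promoters). The other 6 motifs had no match in either window, and they occurred in 8.68% (TATA box), 7.3% (E-box), 5.43% (AP-1), 12.2% (AGAACA), 1.28% (CArG box) and 1.92% (MEF2) of promoters. GC content was 54.4% for Vwce and 49.2% for Scin, beside a median of 57.6%, with 7 and 9 CpG dinucleotides beside a median of 12. The GC box was the only searched motif that both windows held.

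Vwce was highest in FeCon, at 6.83 ± 4.33 CPM (SD, n = 10). The 10 FeCon libraries ran from 0.464 CPM (7 counts, replicate 2) to 12.5 CPM (171 counts, replicate 9), with a median of 6.91. FeCon libraries therefore did not share 1 level: replicate 2 lay among the BAPN-treated mice, and 5 libraries stood at 9.11 CPM or above. MaCon followed at 1.44 ± 0.969 CPM (n = 10), from 0.333 to 3.66 CPM with a median of 1.19. In 7 of the 10 FeCon libraries Vwce was above the highest MaCon library, and in the other 3 the sexes overlapped. This difference between untreated males and females rests on the libraries that chose the gene and was not tested.

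In every BAPN-treated group Vwce was close to the lowest level the depth could resolve. The 8 FeNonAD libraries ran from 0.183 to 0.918 CPM with a median of 0.446 (3 to 15 counts), and the 9 FeAAD libraries from 0.118 to 0.611 CPM with a median of 0.30 (2 to 10 counts). The 4 MaNonAD libraries stood at 0.240, 0.446, 0.591 and 0.401 CPM, and the 7 MaAAD libraries ran from 0.184 to 0.524 CPM with a median of 0.301. These 4 groups overlapped one another throughout. By mean the order was FeCon, MaCon, FeNonAD (0.477 ± 0.244), MaNonAD (0.419 ± 0.145), MaAAD (0.351 ± 0.125) and FeAAD (0.291 ± 0.153), and no neighbours in it were separated without overlap.

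Scin gave the same order for the first 4 ranks, with less overlap between FeCon and the other groups. FeCon stood at 10.0 ± 5.10 CPM (n = 10), from 2.31 CPM (31 counts, replicate 7) to 15.6 CPM (219 counts, replicate 1) with a median of 10.4. MaCon stood at 1.98 ± 0.813 CPM, from 0.942 to 3.40 CPM with a median of 1.89. In 8 of 10 FeCon libraries Scin exceeded the highest MaCon library, and the exceptions were FeCon replicates 2 and 7.

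The 8 FeNonAD libraries ran from 0.743 to 1.96 CPM with a median of 1.07 for Scin, and the 9 FeAAD libraries from 0.769 to 1.26 CPM with a median of 0.936. The 4 MaNonAD libraries stood at 1.5, 0.573, 0.854 and 1.27 CPM, and the 7 MaAAD libraries ran from 0.599 to 1.47 CPM with a median of 0.816. All 17 BAPN-treated females lay below all 10 FeCon libraries. Of all tested genes, 0.374% had every FeNonAD library below every FeCon library and 1.25% every FeAAD library below every FeCon library, and since these contrasts chose Scin, nothing is read from its place among them. Means were 1.21 ± 0.449 in FeNonAD, 1.05 ± 0.414 in MaNonAD, 0.961 ± 0.178 in FeAAD and 0.874 ± 0.317 in MaAAD, all overlapping. In bulk tissue, fewer cells of an expressing type and less RNA per cell cannot be told apart.

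**Figure D1:**
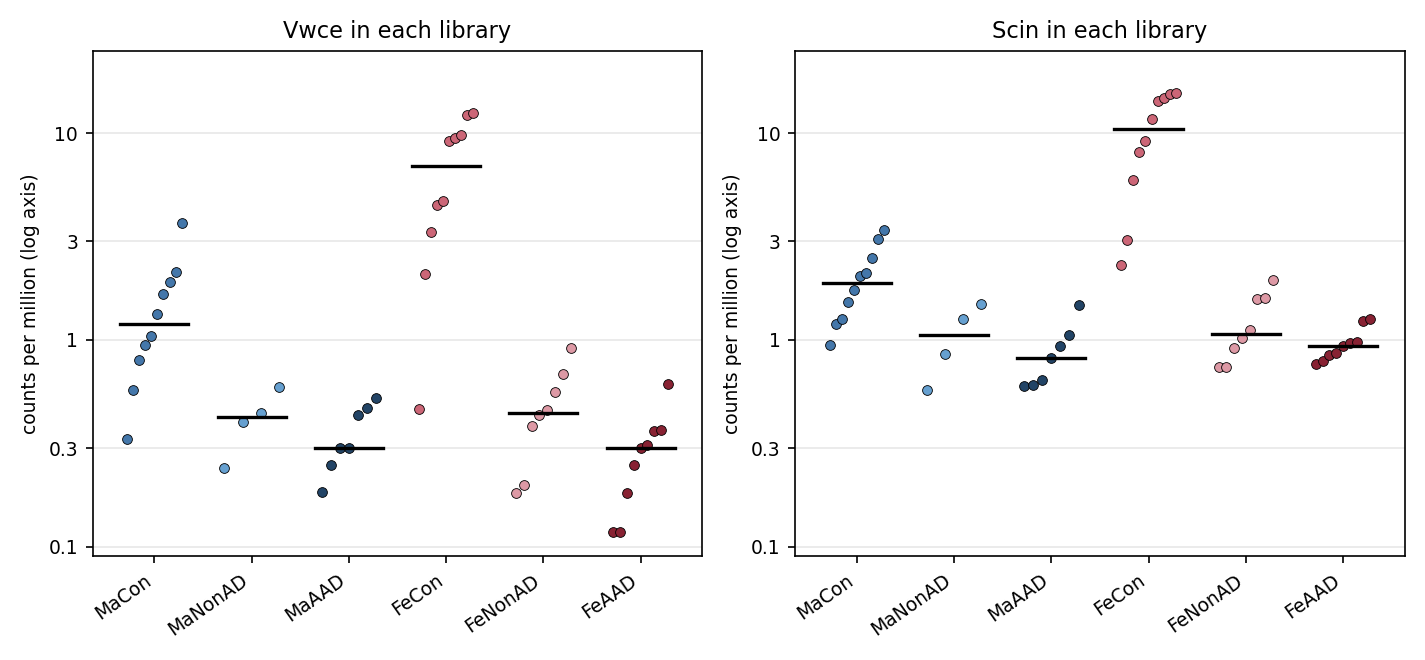
CPM of Vwce (left) and Scin (right) on a log axis, 1 point per mouse ordered by value within its group, with a bar at the group median. FeCon spans 0.464 to 12.5 CPM for Vwce and 2.31 to 15.6 CPM for Scin, and every BAPN-treated library lies below 1 CPM for Vwce and below 2 CPM for Scin.

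Mice of the control groups differed by more than counting error. In FeCon the variance of the counts was 36.8 times their mean for Vwce and 37.3 times for Scin, where counting error alone gives a ratio near 1, and the highest library exceeded the lowest 27.0-fold and 6.75-fold. In MaCon these ratios of variance to mean were 8.91 and 5.44. In the 4 BAPN-treated groups they lay between 0.667 and 2.13 for Vwce and between 0.605 and 2.97 for Scin, but this ratio falls with the mean, and at 2 to 32 counts a library it cannot show whether mice varied less after BAPN. As a percentage of the mean, the SD of Vwce was 63.4% in FeCon, 67.3% in MaCon, 51.2% in FeNonAD, 52.6% in FeAAD, 34.6% in MaNonAD and 35.6% in MaAAD. That of Scin was 50.8% in FeCon, 41.1% in MaCon, 37.2% in FeNonAD, 18.5% in FeAAD, 39.5% in MaNonAD and 36.3% in MaAAD.

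The 2 genes were high in the same group but tracked each other loosely between the mice of a group. Over the 48 libraries their log2 CPM had a Pearson r of 0.80 and a Spearman rho of 0.65. With each group mean subtracted r was 0.17 and rho 0.03, and within FeCon r was 0.32 and rho 0.05 (n = 10). FeCon replicates 1, 5 and 10 were among the 5 highest FeCon libraries for both genes, and replicate 2 was low for both. FeCon replicate 7, the lowest for Scin at 2.31 CPM, had 9.83 CPM of Vwce, and FeCon replicate 9, the highest for Vwce, was the third lowest for Scin at 5.93 CPM. The libraries share the group means, tissue and scaling, so these correlations are a description.

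In females, where the genes were chosen, Vwce was 14.1-fold lower in FeNonAD than in FeCon (log2 fold change -3.81, the 3rd lowest of 14431 genes) and 22.9-fold lower in FeAAD than in FeCon (-4.52, the lowest). Scin was 8.28-fold lower in FeNonAD (-3.05, 11th lowest) and 10.4-fold lower in FeAAD (-3.37, 7th lowest). Both comparisons share the 10 FeCon libraries. From FeNonAD to FeAAD the log2 fold changes were -0.71 for Vwce and -0.32 for Scin. Without FeCon replicate 2, an omission chosen after seeing its value, Vwce stood at -3.96 and -4.66 against FeCon and Scin at -3.16 and -3.48. Without FeCon replicate 10 the values were -3.75 and -4.45 for Vwce and -2.96 and -3.28 for Scin.

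In males both genes fell from MaCon to MaAAD. Vwce fell by 2.00 in log2 fold change (SE 0.46, 95% interval -2.94 to -1.07, 4.01-fold), with an adjusted p of 0.000607 by edgeR's quasi-likelihood test with Benjamini-Hochberg adjustment over all 14431 genes. Scin fell by 1.17 (SE 0.32, 95% interval -1.81 to -0.54, 2.26-fold, adjusted p = 0.00297 in the same edgeR fit). Both passed the call used here, an adjusted p under 0.05 with a log2 fold change of at least 1 in size, as did 2.18% of all tested genes in that direction. A two-sided exact permutation test of each gene alone, on mean log2 CPM of 7 against 10 libraries, gave p = 0.00118 for Vwce and p = 0.00154 for Scin. The groups still overlapped. For Vwce 9 of 10 MaCon libraries were above the highest MaAAD library and the exception was MaCon replicate 9, and for Scin 7 of 10 were. Non-overlap in this direction occurred in 2.77% of tested genes.

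MaNonAD mice had low values for both genes, but with 4 libraries the comparison with MaCon was not called. Vwce had a log2 fold change of -1.76 (SE 0.57, 95% interval -2.91 to -0.61, adjusted p = 0.155 by edgeR) and Scin of -0.91 (SE 0.38, 95% interval -1.68 to -0.14, adjusted p = 0.297). Neither was among the 0.097% of genes called lower by edgeR here, although the unadjusted p of both was under 0.05 (0.00339 and 0.0215), and DESeq2 did not call them either (adjusted p = 0.0862 and 0.272). Two-sided exact permutation tests of each gene alone gave unadjusted p = 0.017 for Vwce and p = 0.032 for Scin. In 8 of 10 MaCon libraries Vwce exceeded the highest MaNonAD library, and in 7 of 10 Scin did, beside 0.644% of genes with no overlap at all.

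Between MaNonAD and MaAAD neither gene was called, and the intervals were wide. Vwce had a log2 fold change of -0.24 (SE 0.62, 95% interval -1.48 to 1.00, adjusted p = 0.875 by edgeR) and Scin of -0.26 (SE 0.40, 95% interval -1.08 to 0.55, adjusted p = 0.773). Of all tested genes 0.353% (51 genes) were called in either direction, a count that was 513 with DESeq2, 0 without the filter on low counts or with the replicate number as a block, and 0 to 712 with 1 library left out. With 3 to 9 counts of Vwce per library in these groups, a change within these intervals was not detectable at this depth.

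**Figure D2:**
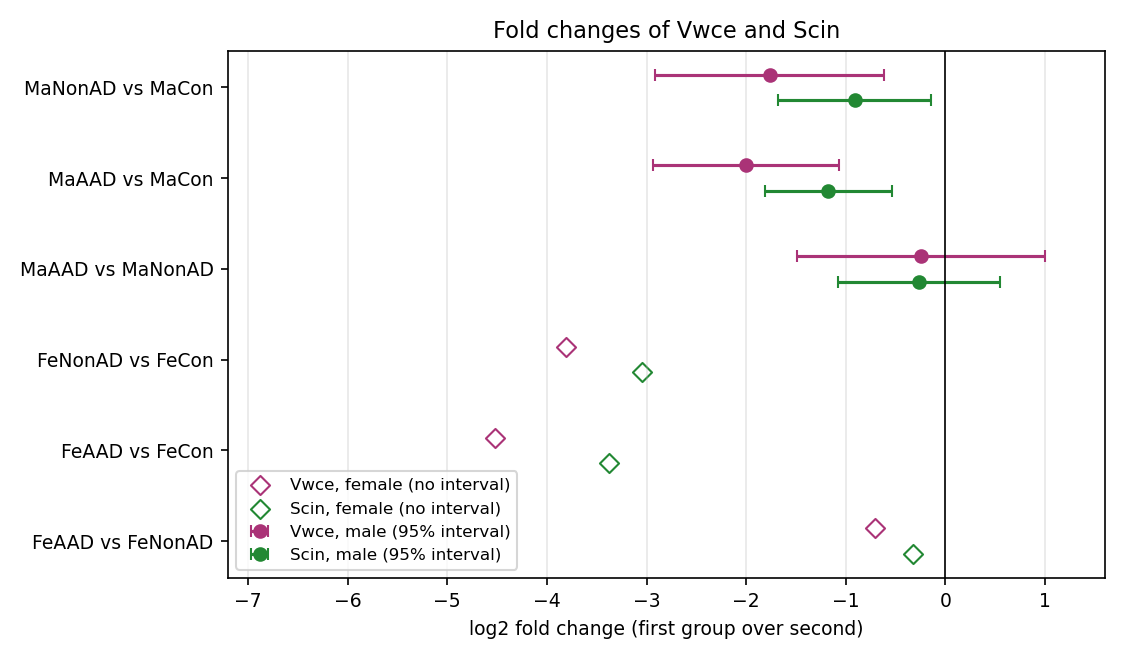
Log2 fold changes of Vwce and Scin in 6 comparisons, filled with 95% intervals for males and open without intervals for females, whose values chose the genes. The male intervals against MaCon lie below 0, those of MaAAD against MaNonAD span 0, and the female values against FeCon range from -3.05 to -4.52.

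Marker RNA of the cell types of the vessel wall is given beside these values without a test. The summed smooth muscle markers had medians of 43405 CPM in FeCon, 31490 in FeNonAD and 21731 in FeAAD, with overlapping ranges in FeCon (30532 to 52200) and FeNonAD (25729 to 44689). In males the medians were 41436 CPM in MaCon (27852 to 60211), 33883 in MaNonAD (20854 to 37800) and 20744 in MaAAD (11833 to 29449). Of 21 marker lists, no list had all FeNonAD or all FeAAD libraries below all FeCon libraries, and no list had all MaAAD below all MaCon. The macrophage list (895 to 3772 CPM in MaAAD, 240 to 608 in MaCon) and the cartilage list (153 to 268 CPM in MaAAD, 41.4 to 94.5 in MaCon) had all MaAAD libraries above all MaCon libraries. In MaNonAD the cartilage list (128 to 236 CPM) and the B cell list (7.32 to 20.5 CPM, beside 0.856 to 5.50 in MaCon) had all libraries above all MaCon libraries. In females the cartilage list had all FeAAD libraries (109 to 469 CPM) above all FeCon libraries (50.1 to 101 CPM), and the macrophage list overlapped. The part of these lists in the falls of Vwce and Scin was not tested.

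Some clock genes, from lists added after values were seen, were called between MaCon and MaAAD. In MaAAD against MaCon, 3 of 5 clock genes that are high together with Arntl were called lower, namely Arntl (log2 fold change -2.78), Npas2 (-3.15) and Nfil3 (-2.05), and of the 9 that are high together with Dbp, Per3 (1.34) and Bhlhe41 (1.21) were called higher, beside 2.18% of all genes called lower and 9.18% higher. The other 9 of these 14 genes were not called, and the call of Per3 was lost without any 1 of 12 of the 17 libraries. In MaNonAD against MaCon the median log2 fold change was -2.25 for the genes high with Arntl and 1.11 for those high with Dbp, beside -0.02 for all genes, but none of them was called. In FeAAD against FeCon only Nr1d1 of both lists was called, lower at -1.54 (adjusted p = 0.00119 by edgeR), beside 2.78% of all genes called lower. The median of the genes high with Dbp was -0.72 there and 0.88 in MaAAD against MaCon. Arntl, an activator of the clock, ran from 27.2 to 63.1 CPM in 9 MaCon libraries, stood at 1.62 CPM in MaCon replicate 5, and ran from 2.04 to 11.4 CPM in MaNonAD and from 2.40 to 8.04 CPM in MaAAD. The study's methods place the sampling of faeces in 1 morning window, directly ahead of killing, and the sample labels used here give no hour for each mouse. With the log2 ratio of Dbp to Arntl as a covariate, a fit added after seeing the data, MaAAD against MaCon stood at -1.98 for Vwce and -1.24 for Scin (adjusted p = 0.00132 and 0.00562 by edgeR). Apart from MaCon replicate 5 the 2 groups did not overlap in Arntl, so this fit cannot tell clock state and treatment apart.

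Because FeCon libraries differed so much, other genes that varied with Vwce or Scin were looked up after the values had been seen. Fkbp5, a co-chaperone of steroid receptors and a textbook target of glucocorticoids, ran from 59.8 to 551 CPM over the FeCon libraries. Within FeCon, Vwce and Fkbp5 had r = 0.89 and rho = 0.95 on log2 CPM (n = 10). Without the 2 libraries whose Fkbp5 was farthest from the median, replicates 2 and 3, r was 0.98. That omission took out replicate 2, the library that departed from the relation, so the higher r does not show that the relation held in every library. Map3k6, another glucocorticoid-induced gene, had r = 0.95 and rho = 0.96 with Vwce. All 14 glucocorticoid-induced genes of the list correlated positively with Vwce in FeCon (r from 0.17 to 0.95, median 0.70) and in MaCon (r from 0.26 to 0.81, median 0.56). The 2 libraries farthest from the median of each gene were then left out. Among the falls in FeCon were Per1 from 0.73 to 0.33, Tsc22d3 from 0.51 to 0.33, Errfi1 from 0.47 to 0.24, Dusp1 from 0.37 to 0.08 and Pdk4 from 0.17 to 0.06. Fkbp5, Map3k6, Sgk1 and Zbtb16 rose in FeCon, and every value there stayed positive. In MaCon the values also moved both ways. Falls there included Mt1 from 0.63 to near 0, Mt2 from 0.64 to 0.08, Map3k6 from 0.60 to 0.15 and Pdk4 from 0.27 to -0.28. Rises there included Klf9 from 0.26 to 0.60, Cdkn1a from 0.34 to 0.61 and Dusp1 from 0.51 to 0.75. The medians over all libraries of a group were lower in FeNonAD (0.34) and FeAAD (0.19), where Vwce had few counts. With the 9 clock genes high together with Dbp, Vwce had r from -0.24 to 0.83 in FeCon (median 0.18, 8 positive). The highest were Nr1d1 (r = 0.83, rho = 0.77) and Ciart (r = 0.65, rho = 0.07).

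FeCon replicate 2 departed from this relation. It had 71.0 CPM of Fkbp5 and 0.464 CPM of Vwce, whereas FeCon replicate 3 had 59.8 CPM of Fkbp5 and 2.09 CPM of Vwce. Of the 14 genes of the list, which was added after values were seen, 7 were called lower in FeNonAD against FeCon (list median -1.06) and 9 in FeAAD against FeCon (-1.39), with none higher, beside 1.08% and 2.78% of all genes called lower. In MaAAD against MaCon 2 were called lower (Pdk4 and Cdkn1a) and 1 higher (Mt2), beside 2.18% and 9.18% of all genes. Single omitted libraries ended the call of Fam107a in FeNonAD (any of FeNonAD replicates 3, 5, 6 and 8), of Errfi1 in FeNonAD (any of 9 libraries) and in FeAAD (FeCon replicate 7), of Per1 in FeAAD (any of 5 libraries) and of Cdkn1a in MaAAD (any of 6 libraries). The part of these genes in the values of Vwce was not tested. Fkbp5 had medians of 61.0 CPM in FeNonAD and 55.6 CPM in FeAAD against 235 CPM in FeCon. With log2 CPM of Fkbp5 as a covariate, a fit added after seeing the data, the log2 fold change of Vwce against FeCon was -2.47 in FeNonAD and -3.24 in FeAAD, in place of -3.81 and -4.52. That fit describes the libraries that chose Vwce, with a covariate picked because it tracked Vwce in FeCon, and is no test. In males the same fit left MaAAD against MaCon at -1.88 (adjusted p = 6.28e-05 by edgeR), and Fkbp5 had medians of 97.1 CPM in MaCon and 73.4 CPM in MaAAD.

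For Scin the median r with the 14 genes of the glucocorticoid list was -0.09 in FeCon (6 positive), 0.18 in MaCon (8 positive), -0.21 in FeNonAD (4 positive) and 0.58 in FeAAD (12 positive). In FeAAD Scin ran only from 0.769 to 1.26 CPM. Within FeCon it varied with genes of the circadian clock that peak together with Dbp, a transcription factor of the clock output. All 9 genes of that list had a positive Pearson r in FeCon (from 0.38 to 0.92, median 0.82), among them Bhlhe41, a repressor in the clock (r = 0.92, rho = 0.82), and Dbp itself (r = 0.84, rho = 0.55, and 0.52 without the 2 libraries farthest from the median of Dbp). The values rested in part on the libraries farthest from the median of each gene, without which Per2 went from 0.82 to 0.23 and Ciart from 0.38 to -0.27 (rho = -0.07 over all 10). FeCon replicates 2, 7 and 9, the lowest for Scin, had 33.0, 58.3 and 72.1 CPM of Dbp, and the other 7 had 198 CPM or more. The median r was -0.27 in MaCon, -0.01 in FeNonAD and 0.16 in FeAAD, and MaNonAD and MaAAD, with 4 and 7 libraries, were not examined for it. FeNonAD libraries with 272 to 381 CPM of Dbp had no more than 1.6 CPM of Scin. With the log2 ratio of Dbp to Arntl as a covariate, also added after seeing the data, the female log2 fold changes of Scin were -3.04 and -3.36, against -3.05 and -3.37 without it. This fit describes the libraries that chose Scin and is no test. It uses 1 slope for all groups although r differed between them, so it cannot show the part of the clock genes in the fall.

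**Figure D3:**
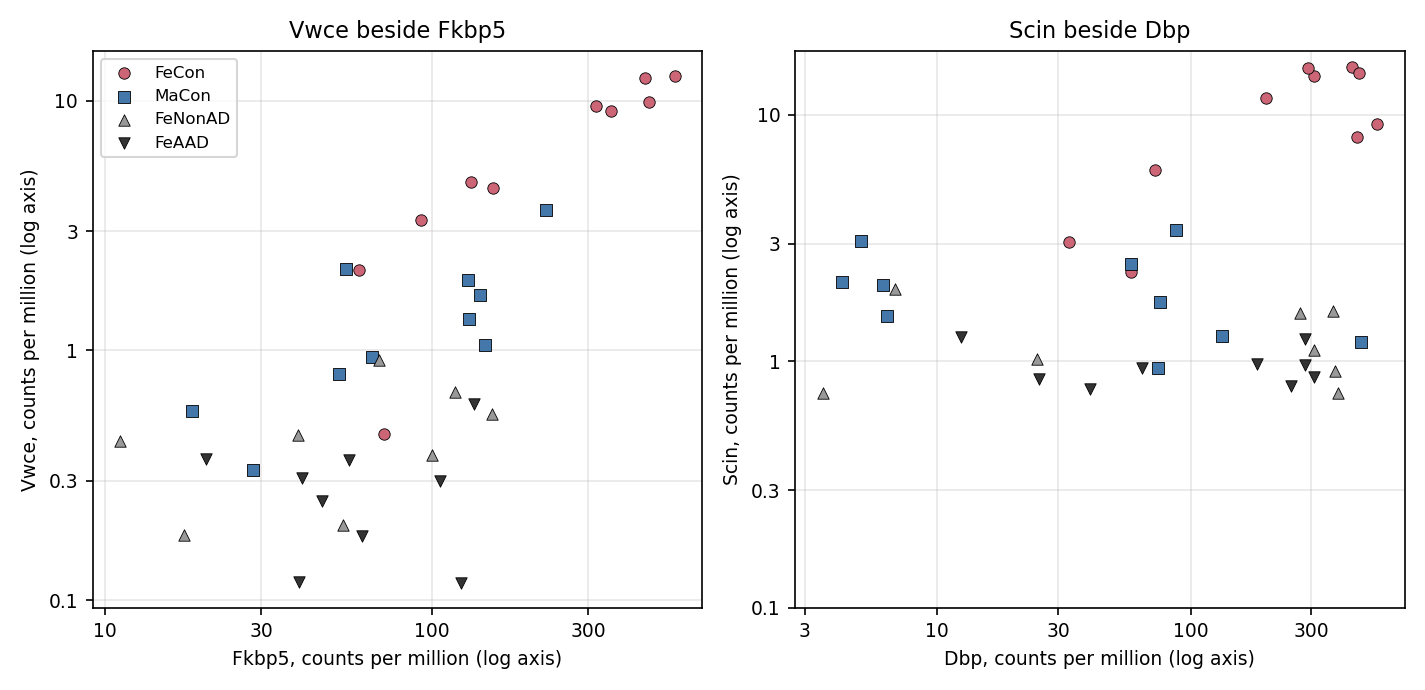
CPM of Vwce against Fkbp5 (left) and of Scin against Dbp (right) on log axes, 1 point per mouse of FeCon, MaCon, FeNonAD and FeAAD. FeCon libraries rise along the diagonal on the left except replicate 2 (0.464 CPM of Vwce), and on the right the 3 FeCon libraries with under 73 CPM of Dbp are the lowest for Scin while BAPN-treated females stay below 2 CPM at any level of Dbp.

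Over all 48 libraries, genes with a pattern like that of Vwce by Pearson r of log2 CPM, among 13709 genes averaging at least 10 counts, included Emd (emerin of the inner nuclear membrane, r = 0.87), Slc41a3 (0.86), Birc2 (an inhibitor of apoptosis, 0.86) and Lrrc8a (a volume-regulated anion channel, 0.86). With group means subtracted the 5 most like it were LOC118568705 (0.75), Rin3 (0.72), Por (cytochrome P450 oxidoreductase, 0.72), Lrrc8a (0.72) and Btg3 (0.70). Lrrc8a was named by both measures. Emd stood at 121 ± 27.4 CPM in FeCon and between 54.9 and 70.7 CPM on average in the other 5 groups. Por had means of 433 ± 220 CPM in FeCon and 187 to 278 CPM elsewhere.

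The genes most like Scin over 48 libraries were Phka1 (a regulatory subunit of phosphorylase kinase, r = 0.90), Adamts9 (a secreted metalloprotease, 0.90), Glyr1 (0.88), Tango6 (0.86) and Adarb1 (an RNA-editing enzyme, 0.86). With group means subtracted Glyr1 (0.74), Adamts9 (0.72), Fbxo38 (0.72), Phka1 (0.70) and Jmjd4 (0.68) led, so 3 of the 5 were the same. Phka1 stood at 68.7 ± 25.6 CPM in FeCon and at 26.0 to 32.2 CPM on average in the other 5 groups. Adamts9 stood at 69.5 ± 27.5 CPM in FeCon and at 23.0 to 33.9 CPM elsewhere. Tango6 varied within FeCon by more than Scin, from 12.6 to 87.6 CPM, and averaged 10.1 to 13.9 CPM elsewhere. Jmjd4 was hardly raised in FeCon, at a mean of 12.4 CPM beside 10.2 to 11.4 CPM elsewhere. The likeness covers these libraries only.

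The other genes of the gelsolin family had smaller log2 fold changes than Scin in both comparisons with FeCon. Scin was chosen for its falls there, so nothing is read from that difference in size. Of 7 tested, none was called in FeNonAD against FeCon by edgeR or by DESeq2 (4 had an unadjusted p under 0.05 by edgeR), where Gsn (gelsolin, -0.53, SE 0.17, adjusted p = 0.032 by edgeR) and Svil (supervillin, -0.56, SE 0.18, adjusted p = 0.0351) missed the fold change. All-gene calls there were 1.08% lower and 1.67% higher, and the median log2 fold change of the 7 was -0.07 beside 0.00 for all genes. In FeAAD against FeCon, Gsn (-1.29, SE 0.17) and Svil (-1.15, SE 0.18) fell and Vill (villin-like, 1.86, SE 0.20) rose, beside 2.78% and 9.94% of all genes. In MaAAD against MaCon, Vill (1.92, SE 0.21) and Capg (the macrophage capping protein, 1.25, SE 0.22) rose, beside 9.18% of all genes. Gsn had 5162 ± 709 CPM in FeCon, 3572 ± 388 in FeNonAD and 2107 ± 857 in FeAAD, but it was not called in FeNonAD against FeCon or in FeAAD against FeNonAD. Scin had 1.21 and 0.961 CPM in the treated groups, and the difference between the patterns of Gsn and Scin was not tested. In FeAAD against FeNonAD, Capg (1.01, SE 0.22) and Vill (1.01, SE 0.21) rose, beside 6.79% of all genes called higher and 0.249% lower. Both lay at the limit of the call, which Capg missed without FeNonAD replicate 1, 2, 5 or 6 or FeAAD replicate 5 or 9 (lowest value 0.73) and Vill without FeNonAD replicate 1, 2, 5 or 7 or FeAAD replicate 1, 6 or 7 (lowest value 0.93). Villin (Vil1), advillin (Avil) and Flii were called in none of the 6 comparisons.

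Vill rose in males where Scin fell. It had means of 4.65 ± 0.946 CPM in MaCon, 11.2 ± 7.76 in MaNonAD and 17.6 ± 5.33 in MaAAD, and in MaNonAD against MaCon its log2 fold change was 1.27 with an SE of 0.24 (adjusted p = 0.00298 by edgeR). That call rested on MaNonAD replicate 1, at 22.3 CPM, without which the value was 0.69 (adjusted p = 0.57 by edgeR). Of all genes 0.381% were called higher there. In females it had 5.76 ± 1.37 CPM in FeCon, 10.4 ± 3.19 in FeNonAD and 20.9 ± 5.18 in FeAAD.

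Other genes that sever, cap or recycle actin mostly stayed within the call. Of 25 tested, none was called by edgeR or DESeq2 in FeNonAD against FeCon or in MaNonAD against MaCon (5 and 2 had an unadjusted p under 0.05 by edgeR). In FeAAD against FeCon, Tmod1 (a cap of the slow-growing filament end) fell by 1.22 in log2 fold change (SE 0.17), and Coro1a (a leukocyte coronin, 2.38, SE 0.39), Tmsb10 (1.32, SE 0.23), Eps8 (1.18, SE 0.21) and Twf2 (1.10, SE 0.18, and 0.91 without FeAAD replicate 5) rose. In MaAAD against MaCon, Coro1a (2.41, SE 0.41) and Eps8 (1.64, SE 0.23) rose and none fell. Of all genes 9.94% were called higher and 2.78% lower in FeAAD against FeCon, and 9.18% and 2.18% in MaAAD against MaCon, so the list's 2 of 25 in MaAAD lay near the background. The list median was 0.03 in FeNonAD against FeCon and 0.14 in FeAAD against FeCon, beside 0.00 for all genes in both.

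Among 17 tested genes with von Willebrand C repeats besides Vwce, called genes were found in both directions, and among all genes too more were called higher than lower (1.67% and 1.08% in FeNonAD against FeCon, 9.94% and 2.78% in FeAAD against FeCon, 9.18% and 2.18% in MaAAD against MaCon). In FeNonAD against FeCon, Vwc2 (brorin, an antagonist of bone morphogenetic proteins) fell by 1.11 (SE 0.35, adjusted p = 0.0276 by edgeR), and the matrix genes Ccn4 (1.03, SE 0.29) and Thbs1 (1.15, SE 0.37) rose. Without FeNonAD replicate 8 none of these 3 was called, at -1.02, 0.69 and 0.68 (adjusted p = 0.0595, 0.0893 and 0.194 by edgeR). Vwc2 also lost its call without FeNonAD replicate 3, 5 or 6, Ccn4 without FeCon replicate 3 or 4, and Thbs1 without FeNonAD replicate 6. In FeAAD against FeCon, Vwc2 (-1.26, SE 0.34) and Ccn3 (-1.16, SE 0.19) fell, and Thbs1 (3.62, SE 0.39), Ccn4 (2.64, SE 0.29), Bmper (1.56, SE 0.33) and Thbs2 (1.19, SE 0.19, and 0.99 without FeAAD replicate 6) rose. The same 4 genes rose in MaAAD against MaCon, and none fell, with Thbs2 no longer called without MaAAD replicate 4 (0.95) or replicate 1. In MaNonAD against MaCon none was called by edgeR (2 had an unadjusted p under 0.05), and DESeq2 called Ccn4 higher. The list median was -0.15 in FeNonAD against FeCon, 0.25 in FeAAD against FeCon and 0.14 in MaAAD against MaCon, beside 0.00, 0.00 and -0.03 for all genes. Vwc2 was the member closest to Vwce in its female direction, with 24.5 ± 7.80 CPM in FeCon, 11.4 ± 7.02 in FeNonAD and 10.3 ± 4.92 in FeAAD. In MaAAD against MaCon it was not called, at a log2 fold change of -0.64 with an SE of 0.37 (adjusted p = 0.17 by edgeR). Its MaCon libraries ran from 6.09 to 56.1 CPM.

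**Figure D4:**
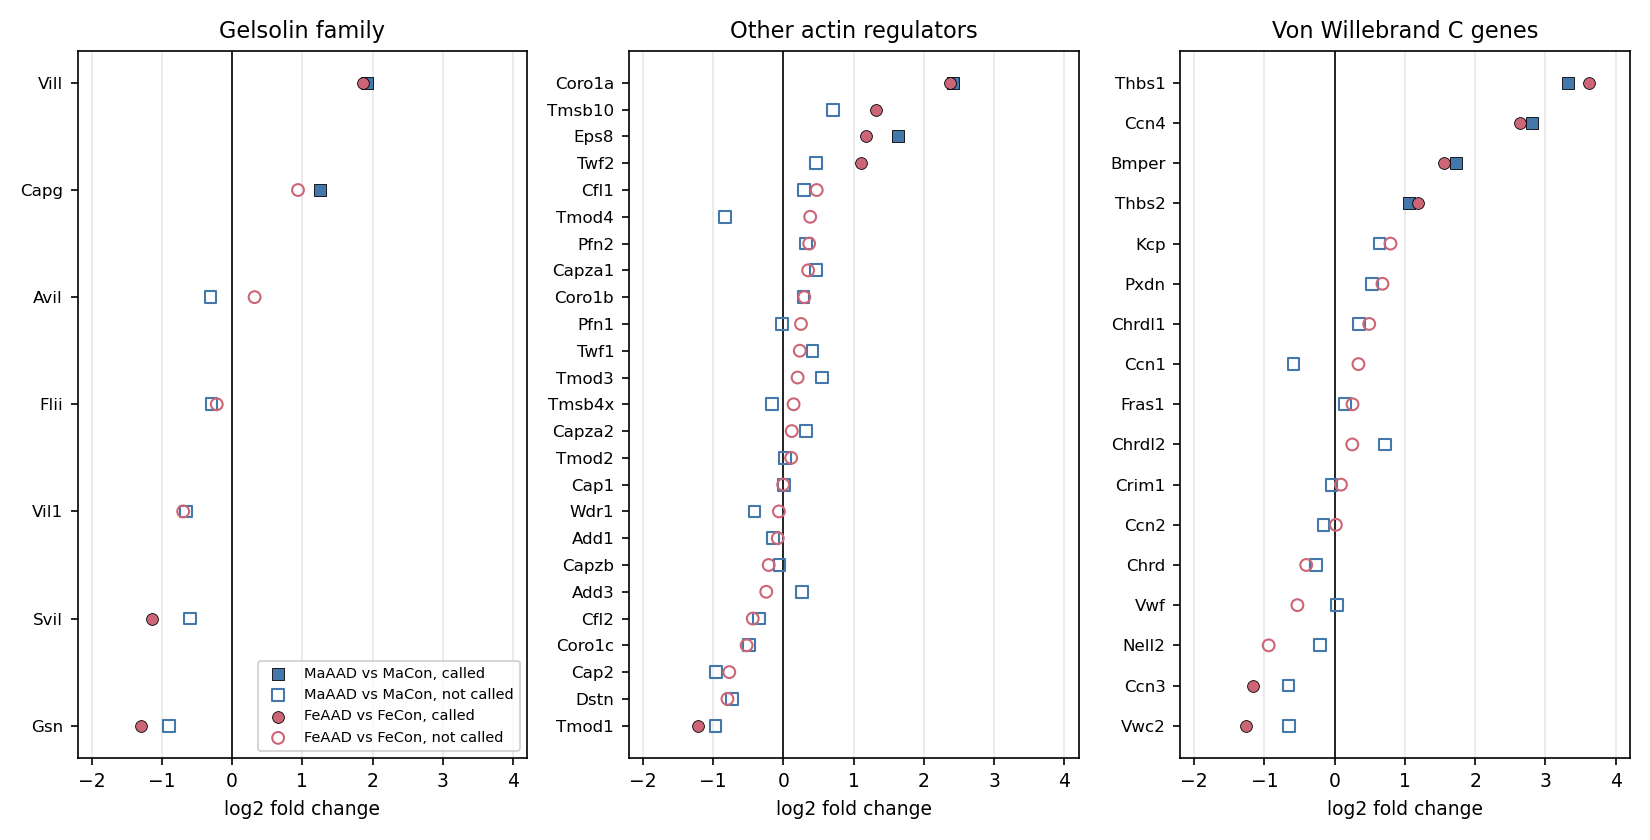
Log2 fold changes of the tested relatives of Scin (left: gelsolin family, middle: other actin regulators) and of Vwce (right: von Willebrand C genes) in MaAAD against MaCon (squares) and FeAAD against FeCon (circles), ordered by the female value, with filled symbols for called genes. Thbs1 (3.62 in females) and Coro1a (2.38) are at the top of their lists, and the lowest values are those of Gsn (-1.29), Vwc2 (-1.26) and Tmod1 (-1.22). Scin and Vwce were chosen for their large female falls, so nothing is read from the smaller size of these values.

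Of the genes beside Vwce and Scin on the chromosome, ordered by RefSeq on GRCm38.p6, only Dgkb was called in any comparison. Of the 6 nearest neighbours of Vwce in the table, Cyb561a3, Tkfc, Ddb1, Vps37c and Cd5 were tested and none was called in any of the 6 comparisons. Ddb1, a damage-sensing adaptor of ubiquitin ligases, had a log2 fold change of -0.13 in FeNonAD and of -0.03 in FeAAD against FeCon. In FeAAD against FeCon, Cyb561a3 (0.61), Tkfc (0.34) and Vps37c (-0.56) missed only the fold change (adjusted p = 3.55e-07, 0.000609 and 4.64e-05 by edgeR). Of the neighbours of Scin, Etv1, Arl4a, Ifrd1 and Zfp277 were called in none, and Dgkb, a diacylglycerol kinase, fell in MaAAD against MaCon (log2 fold change -1.24, adjusted p = 2.37e-05 by edgeR), beside 2.18% of all genes called lower. In that comparison Arl4a (-0.70) and Ifrd1 (-0.66) missed only the fold change (adjusted p = 0.00237 and 0.00126 by edgeR). Pga5 and Lsmem1 did not pass the filter on low counts. An antisense gene that overlaps Vwce in the GENCODE M21 annotation is not listed in the table. The libraries were strand-specific, but whether the counting used strand is not given in the sources used here, so reads of that gene and of Vwce cannot be told apart.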

How the data were processed

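RNA of 48 thoracic aortas was measured by strand-specific RNA sequencing. The authors deposited expected counts per gene, estimated from reads and not scaled to library size, with 1 column per mouse. The submitters' processing notes name Bowtie2, RSEM 1.3.1 and GRCm39. Groups came from the labels. Values were rounded to whole counts (4.99% of the table was not whole, none of the values of Vwce and Scin). Of 18782 genes, 127 were 0 in every library.

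edgeR 4.0.16 in R 4.3.3 was run with filterByExpr, TMM (factors 0.874 to 1.08) and the robust quasi-likelihood test, with 1 mean per group over 48 libraries. Genes were called where p, adjusted by Benjamini-Hochberg, was under 0.05 and the log2 fold change was 1 or more in size. Standard errors and 95% intervals are approximate, from the fold change and the F statistic. CPM for correlations were log2 values with a prior count of 2. DESeq2 1.42.0 and the other alternatives are under the processing section. Reads had no molecular identifiers.

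The 2 genes, the family lists and the marker lists were chosen with earlier results of these data known, and the glucocorticoid and clock lists after seeing values of Vwce and Scin. Named genes were Vwce, Scin, members of those lists, the 5 genes most like each by r, and the 3 neighbours on each side, and 1 gene that this rule selects is not reported here. No p adjusted over the 2 genes alone is given. Promoters are from RefSeq, in which both genes matched by symbol. Figures were drawn with matplotlib 3.10.9 in Python 3.11.15.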

Additional observations from a re-analysis of the deposited data

Results flagged for a closer look

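FeAAD replicate 2 had 0.611 CPM of Vwce, set apart from the other 8 FeAAD libraries, which ran from 0.118 to 0.367 CPM. It was the only 1 of 12 groups of libraries examined for a value far from the rest, and chance alone sets apart about 1 in 20 groups. The library held 10 Vwce counts and the next highest 6.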

How the results depend on the processing

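Vwce and Scin kept their direction in all 6 comparisons under every alternative run, and both stayed called in MaAAD against MaCon. There the log2 fold change of Vwce ranged from -2.01 to -1.88 over 9 alternative fits across all genes (adjusted p from 6.28e-05 to 0.00302) and that of Scin from -1.24 to -1.12 (adjusted p from 0.00196 to 0.00625). With 1 male library left out at a time the values ranged from -2.10 to -1.71 for Vwce and from -1.35 to -1.05 for Scin.

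In MaNonAD against MaCon neither gene was called by any model across all genes. The two-sided exact permutation tests of each gene alone gave a difference in mean log2 CPM of -1.32 for Vwce (p = 0.017) and of -0.82 for Scin (p = 0.032), both under 0.05 without adjustment over genes. Leaving out 1 library gave -1.95 to -1.47 for Vwce and -1.13 to -0.68 for Scin.

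The count of genes called moved more than the members did. MaAAD against MaNonAD had 51 called genes (2694 at an unadjusted p under 0.05), and 513 with DESeq2, 168 with DESeq2 size factors, 212 with library totals, 99 without robust estimation, 494 in a fit of the males, 199 with the ratio of Dbp to Arntl as a covariate, and 0 with Fkbp5 as a covariate (2713 unadjusted) or without the filter (2950 unadjusted). Leaving out 1 library gave 0 to 712, with 0 without MaNonAD replicates 2, 3 or 4 or MaAAD replicates 3, 5, 6 or 7. MaNonAD against MaCon had 69 called genes, 227 with the ratio of Dbp to Arntl as a covariate, and 15 to 86 with 1 library left out. The lowest was without MaNonAD replicate 1. The cause was not tested.

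Same-numbered libraries did not vary together (mean correlation of deviations from -0.06 to 0.05 over the comparisons), so the number does not pair mice. With the replicate number as a block, Vwce and Scin stood at -1.88 and -1.18 in MaAAD against MaCon (adjusted p = 0.00302 and 0.00432 by edgeR), at -1.32 and -1.01 in MaNonAD against MaCon, and at -0.55 and -0.17 in MaAAD against MaNonAD, where the block left 0 called genes (2049 at an unadjusted p under 0.05). It changed no call of Vwce or Scin. The relatives of both genes named as called against controls were also called by DESeq2, with its size factors and with library totals. Fits without each library in turn, added for listed genes after seeing the data, ended the calls named beside them.

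Among female values, the Fkbp5 covariate moved Vwce most, from -3.81 to -2.47 in FeNonAD and from -4.52 to -3.24 in FeAAD. Vwce had 2 to 15 counts in each BAPN-treated library, and those groups held 4 to 9 libraries, so small differences among them could not be resolved. The part of depth in this was not tested.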

Other observations

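In the 21 male libraries alone, which did not choose the genes, Vwce and Scin had r = 0.49 and rho = 0.46 on log2 CPM, 0.07 and 0.02 within MaCon, and -0.56 and -0.43 within MaAAD (n = 7). The genes most like Vwce there were Chka, a choline kinase (r = 0.90), Vstm2b (0.88), Bcl2l1, an inhibitor of apoptosis (0.87), Hspb8, a small heat shock protein (0.85), and Asrgl1 (0.84). Those most like Scin were 4932438A13Rik (0.90), Arhgap6 (0.87), Ccdc141 (0.86), Herc1 (0.86) and Gprasp1 (0.85). None of these 10 was among the 5 genes most like either gene over the 48 libraries. The libraries share group means and scaling, so these values are a description.

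MaCon replicate 5 was the highest control male for Vwce (3.66 CPM) and for Fkbp5 (224 CPM) and had 472 CPM of Dbp, where the other 9 MaCon libraries had 4.21 to 133 CPM. Its Scin, at 1.2 CPM, was the second lowest of the group.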
